A study of Mus musculus with 25 samples.

Results

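This section describes 13384 chromatin contacts of mouse embryonic stem (ES) cells that were found by both contact assays of the study and were absent from its fibroblast lists. A contact is a pair of 10 kb bins of the genome (build mm10) that the authors' lists give as ligated to each other above their thresholds. The contacts were chosen by the deposited lists themselves: each stood, with the same pair of bins, in the ES list of H3K27ac HiChIP and in the ES list of Hi-C, and in neither list of mouse embryonic fibroblasts (MEFs). They made up 34.6% of the 38633 contacts in both ES lists and 17.7% of the 75466 contacts in the ES H3K27ac list. All 9 lists of the series together held 493983 distinct contacts.

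The series held 25 libraries in 9 groups, 21 of HiChIP and 4 of Hi-C, all from cells fixed with 1% formaldehyde. HiChIP enriches ligated DNA by immunoprecipitation, here of H3K27ac, the acetyl mark of active promoters and enhancers, or of KLF4, a zinc finger transcription factor. The ES cells were the V6.5 line grown in 2i medium, with 2 H3K27ac, 4 KLF4 and 2 Hi-C libraries. The MEFs came from embryos at E13.5 that carried rtTA3 and OKSM, the doxycycline-inducible cassette of Oct4, Klf4, Sox2 and Myc, and were heterozygous for these and for an Oct4-GFP reporter. MEFs were taken at passage 3, with 2 H3K27ac and 2 Hi-C libraries. The reprogramming groups were such MEFs given doxycycline and ascorbic acid, as a bulk population on day 3 (3 KLF4 libraries) and sorted for SSEA1 on day 6 (4 KLF4 libraries). The last groups, labelled TKO, were H3K27ac libraries of V6.5 cells in 2i, 3 without doxycycline (0 h) and 3 after 24 h of it. The labels do not spell out TKO or name its alleles, so the groups are compared here only as 24 h against 0 h. All ES and TKO groups are of 1 cell line, and the MEF groups carry the reprogramming cassette.

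HiChIP libraries held 48.7 to 181 M (mega) contacts, with 167 ± 1.39 M in ES H3K27ac and 90.1 ± 21.3 M in MEF H3K27ac (SD, n = 2 each). TKO libraries held 80.5 to 110 M at 0 h and 68.3 to 102 M at 24 h. The 29 of 32 pluripotency genes with an annotated bin had 294 H3K27ac contacts in the ES list against 4 in the MEF list, and all 29 had more in ES. Of the 24 fibroblast genes 8 had an annotated bin, with 9 contacts in ES and 47 in MEF. In 3 pairs of libraries the counts agreed within sampling noise by a chi-square test while other pairs of their group differed, and each such pair was summed and counted as 1 sample: ES KLF4 1 with 2 (p = 0.438), ES KLF4 3 with 4 (p = 0.903) and TKO 24 h 1 with 3 (p = 0.119). No pair of the day 6 KLF4 libraries differed beyond sampling noise, and these 4 were left separate and entered no test. Nothing in the labels says that libraries of a group came from separate cultures, so p-values measure the spread between these libraries, which may be technical.

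Enhancers act on genes over a distance, and the contact between an enhancer and a promoter is commonly read as the spatial side of that action. In pluripotent cells, enhancers that are occupied together by OCT4, SOX2, NANOG, ESRRB and Krüppel-like factors contact the genes for these same factors, which keep one another transcribed. KLF4 binds CACCC and GC-rich boxes, and KLF2 and KLF5 share much of this binding. During reprogramming, KLF4 supplied from the cassette occupies both fibroblast and pluripotency sites.

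The promoters below belong to genes whose RefSeq start lay in an anchor bin of a contact that the results turn on: a pair of core pluripotency factors, a pair of Krüppel-like factors, the gene at the contact with the highest deposited CPM, and genes at contacts that were weaker or stronger at 24 h. Each line gives the 250 bases before the start site, 5′ to 3′ on the gene's strand, from RefSeq (GRCm38.p6, the mm10 assembly). Capitals mark matches to GGGTGTGG or GGGCGTGG on either strand, that is also CCACACCC or CCACGCCC, both Krüppel-like factor boxes. They differ from each other at a single base, so they cannot match at the same place, and the second overlaps the GC box of Sp factors.
Pou5f1 (chr17:35505782-35506031, plus strand): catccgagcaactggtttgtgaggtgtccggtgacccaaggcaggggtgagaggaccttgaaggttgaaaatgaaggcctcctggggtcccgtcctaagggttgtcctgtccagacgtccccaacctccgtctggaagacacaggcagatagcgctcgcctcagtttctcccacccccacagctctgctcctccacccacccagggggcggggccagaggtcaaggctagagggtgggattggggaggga
Nanog (chr6:122707315-122707564, plus strand): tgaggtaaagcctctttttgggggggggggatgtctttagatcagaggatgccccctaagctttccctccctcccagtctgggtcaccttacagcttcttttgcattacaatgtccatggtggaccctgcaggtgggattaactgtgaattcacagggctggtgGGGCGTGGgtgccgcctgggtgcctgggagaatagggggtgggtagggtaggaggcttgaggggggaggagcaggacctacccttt
Klf2 (chr8:72318812-72319061, plus strand): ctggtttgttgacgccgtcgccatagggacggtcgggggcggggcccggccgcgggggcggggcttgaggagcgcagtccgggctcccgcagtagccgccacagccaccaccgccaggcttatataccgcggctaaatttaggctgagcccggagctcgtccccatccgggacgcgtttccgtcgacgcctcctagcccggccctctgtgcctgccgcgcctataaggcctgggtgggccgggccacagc
Klf9 (chr19:23140976-23141225, plus strand): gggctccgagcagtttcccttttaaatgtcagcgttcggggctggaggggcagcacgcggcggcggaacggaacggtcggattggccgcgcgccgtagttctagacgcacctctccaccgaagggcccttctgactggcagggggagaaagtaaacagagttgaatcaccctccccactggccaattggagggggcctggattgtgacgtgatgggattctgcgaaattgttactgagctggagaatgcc
Cdc5l (chr17:45433708-45433957, minus strand): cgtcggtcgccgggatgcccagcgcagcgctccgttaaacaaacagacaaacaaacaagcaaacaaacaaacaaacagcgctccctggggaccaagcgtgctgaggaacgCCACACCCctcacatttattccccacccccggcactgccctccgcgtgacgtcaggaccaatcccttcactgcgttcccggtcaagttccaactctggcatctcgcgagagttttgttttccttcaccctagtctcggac
Gcnt2 (chr13:40859518-40859767, plus strand): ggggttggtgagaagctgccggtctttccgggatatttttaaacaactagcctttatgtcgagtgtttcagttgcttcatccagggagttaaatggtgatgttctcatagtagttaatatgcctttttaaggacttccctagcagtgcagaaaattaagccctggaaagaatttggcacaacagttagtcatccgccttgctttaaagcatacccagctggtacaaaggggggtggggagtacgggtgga
Vmac (chr17:56716922-56717171, minus strand): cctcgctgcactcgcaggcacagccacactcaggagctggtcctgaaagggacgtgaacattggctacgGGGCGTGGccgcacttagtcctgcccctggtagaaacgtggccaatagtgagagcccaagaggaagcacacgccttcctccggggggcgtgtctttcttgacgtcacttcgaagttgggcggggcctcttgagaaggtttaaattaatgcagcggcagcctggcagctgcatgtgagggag
The Nanog, Cdc5l and Vmac windows each held 1 match, beginning 86, 140 and 181 bases before the start, and the other 4 windows held none of these letters. In the Vmac anchor bin, the windows of another Vmac start and of Ndufa11, not printed, held 0 matches. So did that of B230354K17Rik in the Cdc5l bin. Of all 32851 RefSeq promoters, 7.72% held a match, against 10.2% of the 12953 in any anchor bin of the ES H3K27ac list and 10.8% of the 6079 in an anchor bin of the contacts described here. The share was 11.6% (222 of 1909) where the contact was also in the ES KLF4 list and 10.7% (11 of 103) where it was weaker at 24 h in TKO cells. A match is a string of letters, not a bound site.

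The contacts were mostly of medium range. Their anchor bins lay a median of 30 kb apart (quartiles 20 and 50 kb), 17.1% joined neighbouring bins and 31.9% spanned 50 kb or more. Contacts in all 4 lists, those that ES cells and MEFs shared in both assays, had a median of 20 kb, with 35.0% between neighbouring bins and 14.3% at 50 kb or more. Over the whole ES H3K27ac list the median was 30 kb, with 26.5% neighbouring and 26.3% at 50 kb or more. ES H3K27ac contacts absent from the ES Hi-C list and from both MEF lists also had a median of 30 kb. Of these, 22.1% were neighbouring, 35.9% spanned 50 kb or more and 15.2% spanned 100 kb or more. At the far end 893 of the new contacts (6.67%) reached 100 kb and 68 reached 200 kb. The longest joined bins 620 kb apart on chromosome 4, one of them inside the predicted gene Gm42346, with 51 and 43 contacts in the ES H3K27ac libraries and 24 and 47 in Hi-C. The next reached 350 kb between Ttyh1, a membrane protein gene, and Rdh13, a retinol dehydrogenase gene, and 340 kb between Kcnq1 and Cdkn1c, a potassium channel gene and a cell cycle inhibitor gene of the same imprinted region. A further pair spanned 330 kb each, near Usp9x on the X chromosome and between Erg and Psmg1.

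**Figure D1:**
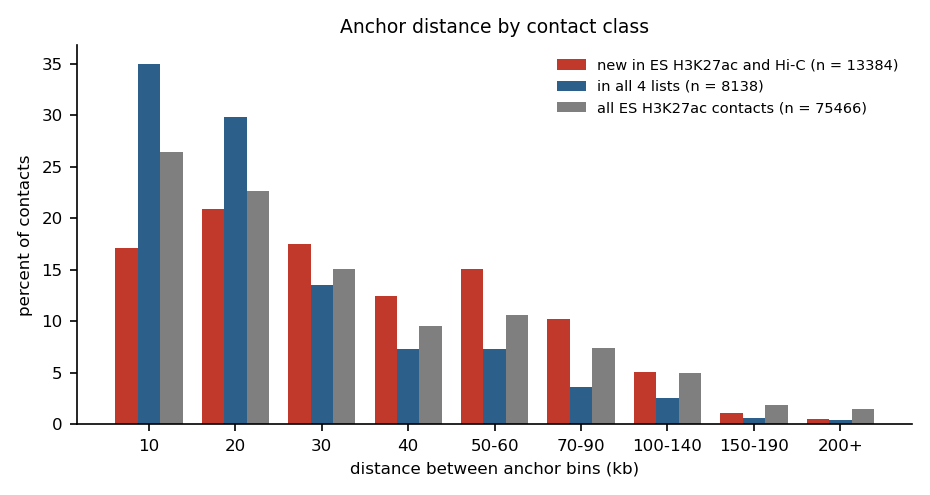
The plot gives the percent of contacts (vertical axis) by the distance between their anchor bins in kb (horizontal axis), for the 13384 new contacts, the 8138 contacts in all 4 lists and all 75466 contacts of the ES H3K27ac list. The new contacts peak at 20 kb with 20.9%, whereas the contacts in all 4 lists peak at 10 kb with 35.0%.

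The absence from MEFs is absence from a list, and its edge is close by. In 10060 of the new contacts (75.2%) a MEF list held a contact within 1 bin of each anchor, and in 3324 it did not. The weakest new contact stood at 3.00 deposited CPM in ES H3K27ac and 15.01 in the deposited Hi-C signal. Just outside the rule, the weakest contacts that the MEF lists removed stood at 3.00 CPM in MEF H3K27ac and 15.0006 in MEF Hi-C. The median new contact had 42 and 43 counts in the ES H3K27ac libraries and 28 and 34 in ES Hi-C, against 54 and 57 and 38 and 48 for contacts in all 4 lists. Of the new contacts 4.31% had a deposited FDR under 0.1 in ES H3K27ac, 4.73% in ES Hi-C and 40 contacts in both.

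A small part of the contacts crossed the edge of a topological domain, a stretch of chromosome that contacts itself more than its neighbours, as deposited for the same Hi-C samples. In the MEF domain map 540 (4.03%) crossed an edge and in the ES map 200 (1.49%). The MEF map placed an edge between the anchors of 420 where the ES map did not, and the ES map did so alone for 80. Of all ES H3K27ac contacts 3.70% crossed a MEF edge and 2.06% an ES edge, and of contacts in all 4 lists 50 (0.614%) and 43 (0.528%). Of contacts new to ES cells without Hi-C support, 6.72% crossed a MEF edge and 3.79% an ES edge. These counts come from the Hi-C samples that also chose the contacts and carry no test.

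Genes stood at about as many anchors as over the whole ES H3K27ac list, which includes these contacts. In the annotation deposited with the TKO lists, 6408 contacts (47.9%) had no gene name at either anchor, 5326 (39.8%) had one at a single anchor, 1220 (9.12%) had one at both and 430 were not annotated. Over the whole ES H3K27ac list 48.5% had none and 9.18% had one at both. Parts of that list differed: contacts in all 4 lists stood at 42.4% and 11.6%. Contacts that only MEF Hi-C already held stood at 56.3% and 6.59%. Of 10206 named bins of the TKO lists, 75.2% held a RefSeq start of a gene they name. Of the bins whose gene is in the RefSeq table, 95.3% did. The contacts used 15394 bins, of which 9289 took part in 1 contact, 648 in at least 5 and 9 in at least 10. In the MEF H3K27ac list 7973 of these bins (51.8%) had no contact at all, against 50.5% of all ES anchor bins.

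By deposited CPM, which is scaled within each chromosome, the strongest contact in H3K27ac HiChIP joined the start of Cdc5l, a cell cycle and splicing factor gene, to a bin in the neighbouring gene Spats1 (chr17:45430001-45440000 and chr17:45450001-45460000). It had 372 and 368 counts in the ES H3K27ac libraries, 59.5 ± 1.26 deposited CPM (SD, n = 2), and 29 and 52 in ES Hi-C. Next came neighbouring bins with the starts of Zfp13 and Zscan10, both zinc finger genes, with 348 and 330 counts. The third lay wholly inside Esrrb, the gene of an orphan nuclear receptor of the pluripotency network, across 40 kb (chr12:86460001-86470000 and chr12:86500001-86510000), with 397 and 375 counts. The fourth joined the start of Klf9 to a bin 50 kb upstream with 213 and 230, and the fifth joined Pou5f1, which encodes OCT4, to the bin before it with 283 and 316. The order is another by plain counts, where Esrrb stood above Cdc5l and Pou5f1 above Klf9, and where the contacts near Serbp1 (440 and 422) and at Zfp710 (340 and 388), described below, were also above Pou5f1. In Hi-C the strongest by counts were contacts of neighbouring bins in or at Hspa4 (90 and 80 counts), a chaperone gene, Rara (89 and 74), the gene of a retinoic acid receptor, Eif1 with Gast (79 and 84), Csnk1d (88 and 74), a casein kinase gene, and Fbxo31 (85 and 72). No contact was among the 5 strongest of both assays by these orders.

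Some bins collected many of the new contacts. A bin on chromosome 12 annotated to the noncoding RNA Platr19, 146 kb from Mycn, took part in 12, over 40 to 230 kb. It had 33 contacts in the ES H3K27ac list and 0 in the MEF list, and 9 of the 12 were also in the ES KLF4 list. A bin inside Klf8, another Krüppel-like factor gene, also took part in 12, of which 4 were in the ES KLF4 list. Bins inside Gabbr1, a GABA receptor gene, and Actn1, an actinin gene, took part in 11 each. The Gabbr1 bin had 7 of its contacts in the ES KLF4 list and the Actn1 bin had 0 of 11. A bin at Gm35510, 28.7 kb from the glucose transporter gene Slc2a1, took part in 10, as did bins at B4galt6, Enc1, 2210420H20Rik and Trappc8, and one at Hs6st1 took part in 9. The B4galt6 and Trappc8 bins lie close together on one chromosome, so these counts are of overlapping neighbourhoods.

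Among genes of the pluripotency list, 42 of the new contacts had an anchor at 14 of the 29 genes with an annotated bin, among them Pou5f1, Nanog, Tbx3, Klf2, Klf5, Utf1, Sall4, Prdm14, Tcl1, Mycn, Dppa2, Dnmt3l and Lefty2. They spanned 10 to 170 kb with a median of 40 kb, and 19 had no MEF contact within 1 bin. At Pou5f1 the strongest were its contacts with the bin before it and with the bin of Tcf19 and Cchcr1 after it (274 and 318 counts in ES H3K27ac), and further contacts spanned 20, 60 and 70 kb. At Nanog, the homeobox factor of naive pluripotency, a contact 40 kb upstream had 183 and 195 counts and one 80 kb downstream had 133 and 111. Klf2 contacted 6 bins at 10 to 60 kb, the nearest with 202 and 227 counts. Tbx3, a T-box factor gene, contacted 6 bins from 50 to 100 kb away, the strongest 90 kb away with 210 and 217 counts.

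Other lists held fewer. Of LIF and JAK-STAT genes, which carry the signal that supports ES cell self-renewal, 6 contacts were found at 4 of 7 annotated genes, the strongest at the kinase gene Pim3 with 159 and 180 counts. Genes of DNA methylation and Polycomb held 14 contacts at 6 of 13 genes, among them the maintenance methyltransferase Dnmt1 (79 and 62) and Uhrf1 (54 and 38). Cell cycle and Myc genes held 15 at 5 of 11, FGF and MAPK genes 8, of which the 5 strongest were at the bin that Fgfr2 and Ctbp2 share, and Wnt genes 7. Neural and ectoderm genes held 7, at Otx2, Zic2 and Nes, epithelial genes 5, including 1 at the E-cadherin gene Cdh1, BMP genes 4, Nodal genes 2, microRNA hosts and regulators 2, and primitive endoderm genes 1, at Gata6. Fibroblast and mesenchymal genes held 0, with 8 of 24 genes annotated.

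KLF4 HiChIP, which played no part in choosing the contacts, listed 2613 of them in ES cells, or 19.5% (95% Wilson interval 18.9 to 20.2). That share was 24.1% for all ES H3K27ac contacts, 45.5% for contacts in all 4 lists, 27.9% for contacts that only MEF Hi-C already held and 12.9% for contacts new to ES cells without Hi-C support. The intervals cover counting error only. With 1 bin of tolerance at each anchor the share of new contacts was 54.6%, near the 55.3% of all ES H3K27ac contacts, and that of contacts in all 4 lists was 72.6%. On day 3 of reprogramming the KLF4 list held 912 of them (6.81%, 6.40 to 7.25), against 14.5% of all ES H3K27ac contacts and 37.3% of those in all 4 lists. On day 6 it held 138 (1.03%, 0.873 to 1.22), against 3.14% and 11.8%. The day 6 list was short, with 4047 contacts in all.

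By pattern, 2132 of the new contacts (15.9%) were in the ES KLF4 list alone, close to the 15.4% of all ES H3K27ac contacts and the 18.5% of those in all 4 lists. Contacts listed on both day 3 and in ES numbered 440 (3.29%), against 8.14% of all and 25.03% of those in all 4 lists. In no KLF4 list stood 10269 (76.7%), against 69.2% and 41.3%. The new contacts thus differed little from the shared ones in the share listed in ES alone. In full, each list held fewer of them: 19.5% against 45.5% in ES and 6.81% against 37.3% on day 3. By the rule the shared contacts stood in the MEF lists, and the day 3 cells came from such MEFs. Depth differed as well: the day 3 libraries held 124 ± 64.0 M contacts (SD, n = 3) and the ES KLF4 libraries 79.3 ± 21.2 M (n = 4 libraries).

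**Figure D2:**
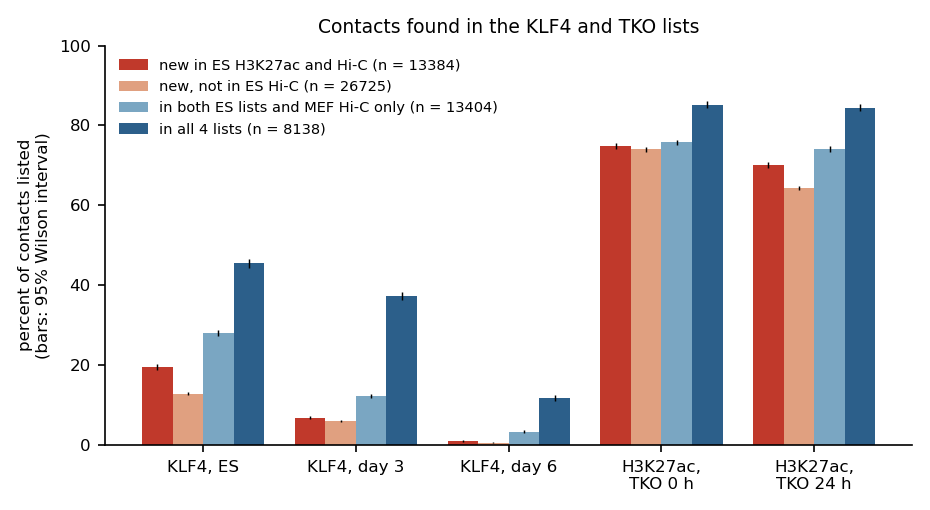
The plot gives the percent of contacts listed (vertical axis, with 95% Wilson intervals) in each of 5 lists that did not choose them: KLF4 on day 3, day 6 and in ES cells, and H3K27ac in TKO cells at 0 h and 24 h. The new contacts stand at 6.81%, 1.03%, 19.5%, 74.9% and 70.02%, below the contacts in all 4 lists at each of the 5.

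All 3 KLF4 lists held 47 of the new contacts. The 10 strongest of these in ES KLF4 joined neighbouring bins near Tle4, a Groucho corepressor gene, in E030044B06Rik, near Serbp1, in Ankhd1, near Hspb8, in Tfap2a, at Crb3 and Dennd1c, in Golm1, at Cd320 and at Pnpla6. The contact near Serbp1 had 0.756, 0.810, 0.831 and 0.765 CPM of the library in the 4 ES KLF4 libraries and 0.386, 0.456 and 0.532 in the 3 of day 3, where CPM of the library is the count scaled to all contacts of that library. The contact near Hspb8 had 0.492, 0.559, 0.897 and 0.941 in ES and 0.386, 0.376 and 0.338 on day 3. Both were higher in every ES library than in any of day 3. The 10 were ranked by their ES KLF4 level, which favours such a difference, and its share over all contacts was not computed. By edgeR's test below, the contacts near Tle4, in E030044B06Rik and in Ankhd1 were not called. Their log2 changes were 0.34, 0.15 and 0.13 (adjusted p = 0.356, 0.758 and 0.797).

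Whether KLF4-bound contacts changed between day 3 and ES cells could be tested for the 7387 contacts in both lists, with edgeR's quasi-likelihood test and Benjamini-Hochberg adjustment over all of them. Of the new contacts 440 were tested. In ES cells 26 were higher (5.91%; 3.02% of all tested were) and 7 were lower (1.59%; 4.18% of all tested were), at adjusted p under 0.05. Their median log2 change was 0.14, against 0.00 over all tested. Contacts in all 4 lists gave 49 higher (2.41%) and 103 lower (5.06%) of 2037. More were higher than lower in other parts too. Contacts that only MEF Hi-C already held gave 43 higher (4.90%) and 19 lower (2.17%) of 877. Contacts new to ES cells without Hi-C support gave 27 higher (4.19%) and 10 lower (1.55%) of 644. Contacts that only MEF H3K27ac already held gave 27 (3.57%) and 26 (3.44%) of 756. The ES and day 3 libraries of 20 of the 26 higher and 6 of the 7 lower contacts did not overlap in CPM of the library. They were called from these libraries, so this separation is largely part of the call. Its share over all contacts tested was not computed. The starting cells, the cassette and the culture (doxycycline with ascorbic acid against 2i) differ between the day 3 and ES groups and cannot be told apart. Without day 3 replicate 3 the total called was 8 in place of 33, and without replicate 1 or 2 it was 13 or 14. Without ES replicate 3 or 4 it was 21 or 16. The lists did not treat all libraries alike. The lowest deposited CPM of a listed contact was 3.01 in replicates 1 and 2 of both groups. It was 0 in ES replicates 3 and 4 and in day 3 replicate 3. The tested contacts thus had a floor in some libraries of each group and not in others. The effect of this on the calls was not tested.

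The largest rise in KLF4 contact was at Klf9, whose promoter is printed above. Its 50 kb contact had 0.183, 0.386, 0.488 and 0.333 CPM of the library in the ES KLF4 libraries and 0.184, 0.133 and 0.0886 on day 3. ES replicate 1 and day 3 replicate 1 were level and the other ES libraries were all higher (log2 change 1.45, SE 0.26, adjusted p = 1.68e-05). Within Fxr1, an RNA-binding protein gene, KLF4 contact was 0.504, 0.463, 0.527 and 0.608 in ES and 0.257, 0.258 and 0.194 on day 3, with no overlap (log2 change 1.19, SE 0.21, adjusted p = 1.43e-05). Further rises were near Trim27 (log2 change 1.19), near Tdrp (1.15), near Apela (1.05), a gene for a peptide hormone of ES cells, between Tbc1d25 and Ebp (1.00), near Hspb8 (0.99) and at Zfp710 (0.97). At Pou5f1 the contact with the Tcf19 and Cchcr1 bin rose by 0.70 on the log2 scale (SE 0.21, adjusted p = 0.0209), a call lost in 8 of 13 alternatives (adjusted p up to 0.307), and that of Zfp13 with Zscan10 by 0.87 (adjusted p = 0.00197).
Lower in ES than on day 3 were the contact between Ddc, a decarboxylase gene, and Grb10, an imprinted adaptor gene (-1.11 (SE 0.25) on the log2 scale), and that at the start of Kirrel (-1.02 (SE 0.21)). The Kirrel contact had 0.229, 0.270, 0.237 and 0.255 CPM of the library in ES and 0.552, 0.560 and 0.404 on day 3, again with no overlap.

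The TKO libraries, also outside the rule, listed most of the new contacts again. At 0 h 10020 were listed (74.9%, 95% Wilson interval 74.1 to 75.6) and at 24 h 9372 (70.02%, 69.2 to 70.8). Both lists held 8404, only that of 0 h held 1616 (16.1% of those listed at 0 h), only that of 24 h held 968 (10.3% of those listed at 24 h) and neither held 2396. All ES H3K27ac contacts stood at 77.6% and 72.3%, with 14.5% of those listed at 0 h and 8.19% of those listed at 24 h found at that time alone. Contacts in all 4 lists stood at 85.2% and 84.5%, and contacts new to ES cells without Hi-C support at 74.0% and 64.4%. Contacts listed at a single time were not tested, since the deposited lists give counts only for what they list, so a contact lost from the 24 h list does not enter the counts that follow.

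Of the 67723 contacts in both TKO lists that passed a filter on low counts, 8403 were new ES contacts. At 24 h 169 of them were lower (2.01%; 2.2% of all tested were) and 46 were higher (0.547%; 0.601% of all tested were) by edgeR's quasi-likelihood test at adjusted p under 0.05, with 3 samples at 0 h and 2 at 24 h. Both shares were near those of all contacts. The lower ones fell by a median of 0.64 on the log2 scale (range -1.16 to -0.30) and the higher ones rose by a median of 0.71 (0.41 to 1.11). In CPM of the library, the 3 libraries at 24 h and the 3 at 0 h did not overlap in 168 of the 169 and in 40 of the 46. These contacts were called from the same libraries, so this separation is largely part of the call. Its share over all contacts tested was not computed. CPM of the library takes contact totals alone. On that scale the 24 h libraries stood lower over all contacts (log2 medians of -0.17 to -0.05 per library pair). The median change of the new contacts was -0.00, against 0.01 for all.

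These counts depend on how the libraries are scaled. The ratios of 24 h to 0 h libraries, per library pair, had medians of -0.18 to -0.05 on the log2 scale over the new contacts. Scaled by contact totals alone, without TMM (trimmed mean of M values) factors, 356 were lower and 21 higher, and the median over all contacts tested moved from 0.01 to -0.10. DESeq2 called 21 of them, all lower and all among the 169. Leaving out 1 library gave 98 (without 24 h replicate 2) to 120 lower contacts, and 21 (without 0 h replicate 1) to 32 higher ones.

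**Figure D3:**
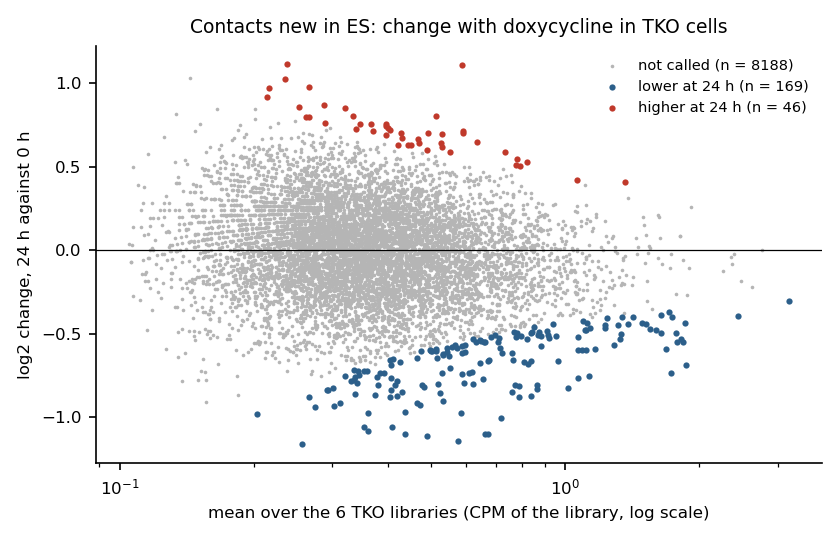
Each point is 1 of the 8403 new contacts tested, by its mean over the 6 TKO libraries (horizontal axis, CPM of the library, log scale) and its log2 change at 24 h against 0 h (vertical axis). The 169 called lower lie between -1.16 and -0.30 and the 46 called higher between 0.41 and 1.11, while most points scatter around 0.

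The contacts that fell furthest included some beside the transcription factor genes Ets2, Foxd3 and Neurog1. The contact with the largest fall spanned 70 kb between bins in the noncoding genes Gm31989 and Gm32130, 2.41 kb and 39.0 kb from Ets2, an ETS factor gene (chr16:95690001-95700000 and chr16:95760001-95770000). It had 0.418, 0.408 and 0.248 CPM of the library at 0 h and 0.190, 0.147 and 0.123 at 24 h, so that the lowest library at 0 h was above the highest at 24 h (log2 change -1.16, SE 0.25, adjusted p = 0.00118). Foxd3, a forkhead factor gene of ES cells and neural crest, lay between bins 30 kb apart (chr4:99630001-99640000 and chr4:99660001-99670000), 16.3 kb and 1.33 kb from them. The contact of these bins had 0.709, 0.595 and 0.758 at 0 h and 0.293, 0.344 and 0.234 at 24 h (log2 change -1.11, SE 0.19, adjusted p = 3.52e-06). Inside the noncoding gene Gm33377 the values were 0.755, 0.735 and 0.944 and 0.351, 0.334 and 0.333 (log2 change -1.14, SE 0.18, adjusted p = 1.90e-07). All 3 of these contacts had groups that did not overlap, and the Gm33377 contact was also in the ES KLF4 list.

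Gcnt2 encodes the enzyme that branches I-antigen glycans, and its start, printed above, contacted a bin 120 kb away in A730081D07Rik. This contact had 0.464, 0.537 and 0.509 CPM of the library at 0 h and 0.205, 0.216 and 0.234 at 24 h, with no overlap (log2 change -1.08, SE 0.22, adjusted p = 2.48e-04). Inside Mir124a-1hg, host of the neuronal microRNA miR-124, the fall was -1.10 (SE 0.17) on the log2 scale. A pair of contacts that share a bin beside Tifab and reach 4930550C17Rik, 1 of them ending 0.478 kb from the proneural gene Neurog1, fell alike (-1.06 and -1.06), and they are not independent. Others of the 10 with the largest falls lay at Gm35891, 94.4 kb from Noct (-1.10), and 64.2 kb from Diaph2 (-1.01).

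Several of the contacts that rose most lay inside genes. The largest rise joined the shared bin of Ndufa11, a gene of respiratory complex I, and Vmac to a bin 30 kb away beside Nrtn (chr17:56710001-56720000 and chr17:56740001-56750000). Its values were 0.118, 0.222 and 0.137 CPM of the library at 0 h and 0.366, 0.334 and 0.246 at 24 h (log2 change 1.11, SE 0.25, adjusted p = 0.00306). The lowest library at 24 h was above the highest at 0 h. Within Fam214a the 0 h libraries stood at 0.364, 0.513 and 0.298 and the 24 h libraries at 0.820, 0.846 and 0.677 (log2 change 1.11, SE 0.17, adjusted p = 1.27e-07). Contacts within Epb41l4a (1.02), Dym (0.98), the lysosomal membrane gene Lamp2 (0.97) and Chn2 (0.86) rose too, as did those of Top3b, a topoisomerase gene, with Ppm1f (0.92), of the Iffo1 and Nop2 bin with Ncapd2 (0.85), and one 25.7 kb from Tfap2c, an AP-2 factor gene (0.80). Of these the calls at Chn2 and Top3b were lost in 8 and 7 of 12 alternatives (adjusted p up to 0.113 and 0.209), and that at Lamp2 in 4 of 12. Ep300, the gene of a histone acetyltransferase that places H3K27ac, contacted a bin 80 kb away. There the 0 h libraries stood at 0.218, 0.210 and 0.224 and the 24 h libraries at 0.351, 0.501 and 0.222 (log2 change 0.87, SE 0.23, adjusted p = 0.0134), and 24 h replicate 3 lay at the level of 0 h. This call was lost in 3 of 12 alternatives.

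**Figure D4:**
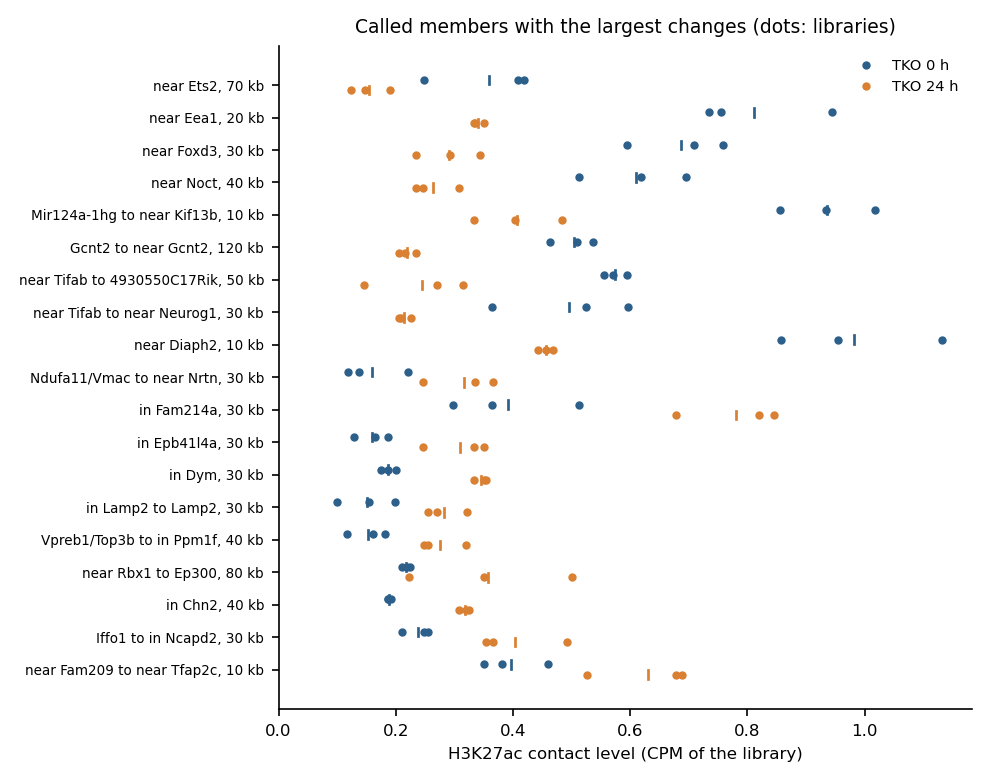
Each line is 1 of 19 new contacts out of the 20 with the largest called changes, 9 lower and 10 higher at 24 h, named by its genes or the nearest coding gene, each point is 1 TKO library (horizontal axis, H3K27ac contact level in CPM of the library) and each tick the mean of 3. The 0 h and 24 h points stand apart from the contact near Ets2 at a log2 change of -1.16 to the Ndufa11 and Vmac contact at 1.11 and in the others, except at Ep300, where they meet.

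The ES contacts with the highest deposited CPM moved differently from one another at 24 h. The Cdc5l contact had 2.04, 2.37 and 2.30 CPM of the library at 0 h and 1.17, 1.37 and 1.12 at 24 h, with no overlap (log2 change -0.74, SE 0.11, adjusted p = 5.21e-08). The contact inside Esrrb had 1.73, 2.51 and 2.57 and 1.46, 1.49 and 1.26, also with no overlap (log2 change -0.55, SE 0.11, adjusted p = 1.26e-04). At Klf9 the values were 1.60, 1.83 and 1.81 and 1.33, 1.29 and 1.31, a change of -0.31 (SE 0.11) on the log2 scale that did not pass the test (adjusted p = 0.138), although the groups did not overlap, and that passed without TMM factors (adjusted p = 0.0313). Zfp13 with Zscan10 stood at -0.04 (SE 0.10) and Pou5f1 with the bin before it at 0.02 (SE 0.11). The Pou5f1 contact had 1.47, 1.56 and 1.503 at 0 h and 1.27, 1.59 and 1.32 at 24 h, and these groups overlapped.

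Contacts that KLF4 HiChIP also listed in ES cells were called lower at 24 h in a larger share. Of 2179 new contacts in the ES KLF4 list 95 were lower (4.36%) and 12 higher, and of 6224 outside it 74 were lower (1.19%) and 34 higher. The same held over all contacts tested, at 4.73% in the list and 1.36% outside. Put the other way, 56.2% of the lower and 26.1% of the higher new contacts were in the ES KLF4 list, beside 25.9% of those tested. Level moved with this: the median level over the 6 TKO libraries was 0.434 CPM of the library in the list and 0.330 outside. With the contacts split by level into low, middle and high classes of equal size, 0.238% in the list against 0.126% outside it were lower in the low class, 2.38% against 0.876% in the middle class and 7.004% against 3.11% in the high class. These shares are descriptions, since contacts share anchors and are not independent. Median level in the list and outside it was 0.235 and 0.236 in the low class, and 0.355 and 0.349 in the middle class. In the high class it was 0.609 and 0.527, so level was not matched there.

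By gene, peak or distance class, the shares lower were near or below those of all contacts tested in the classes given here. Of new contacts with no gene at either anchor 2.42% were lower (2.43% of all contacts tested in that class), and of those with a gene at both 1.06% (8 of 755; 1.47% of all), with 0 of 755 higher (0.324% of all). Where both anchors held an H3K27ac peak of the deposited annotation at both times, 141 of 4965 were lower (2.84%; 3.601% of all) and 25 higher. Where an anchor had a peak at 0 h only, 10 of 493 were lower (2.03%; 2.35% of all) and 0 higher, and where one had a peak at 24 h only, 0 of 315 were lower (0.101% of all) and 2 higher. Neighbouring bins gave 58 of 1766 lower (3.28%; 3.47% of all) and contacts of 100 kb or more 7 of 445 (1.57%; 1.65% of all). New contacts without a MEF contact within 1 bin gave 57 of 2001 lower (2.85%) and 7 higher, against 112 of 6402 (1.75%) and 39 for those with one. These shares lie on either side of the 2.2% lower over all contacts tested, for which this split was not computed. By comparison 4.34% of the contacts new to ES cells without Hi-C support were lower, and 1.65% of those in all 4 lists.

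The bins with many contacts differed at 24 h. At the Gm35510 bin near Slc2a1 4 of 9 tested contacts were lower, and all 9 had a negative change (-0.83 to -0.31). At the Gabbr1 bin 0 of 11 were called, though all 11 were negative (-0.47 to -0.02). At the Klf8 bin 1 of 8 was called, with a median of -0.43. At the Platr19 bin 0 of 11 were called, with changes from -0.45 to 0.41. Contacts of 1 bin share it and are not independent of one another.

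The 35 tested contacts at annotated bins of pluripotency genes did not pass the test at 24 h. Over all contacts tested 2.2% were lower and 0.601% higher, so 0 calls among 35 say little. Esrrb is on the list too, but no bin carries its name in the deposited annotation, so the contact inside it, called lower above, is not among the 35. By edgeR 0 were called (6 had an unadjusted p under 0.05 and the smallest adjusted p was 0.131), and DESeq2 also called 0, with 0 at an unadjusted p under 0.05. Their changes ran from -0.39 to 0.50 with a median of 0.05, 14 below and 21 above 0, with standard errors of 0.11 to 0.25. In CPM of the library, all 3 libraries at 24 h lay below all 3 at 0 h in 9 of the 35 and above them in 1. On this scale, without TMM factors, the 24 h libraries stood lower over all contacts (log2 medians of -0.17 to -0.05 per library pair). The share over all contacts tested was not computed, so 9 against 1 is not read as a fall at these genes. Among the 9 were contacts at Tbx3 (3 contacts), Klf2, Nanog, Tcl1, Prdm14 and Klf5, and the 1 was at Klf2. The strongest Tbx3 contact, 90 kb from the gene, had 0.791, 1.12 and 1.11 at 0 h and 0.790, 0.649 and 0.690 at 24 h (log2 change -0.39, SE 0.14, adjusted p = 0.131). It passed without TMM factors (adjusted p = 0.0264) and without 0 h replicate 1 (adjusted p = 0.0372). The Nanog contact 40 kb upstream had 1.10, 1.25 and 1.14 and 0.761, 0.993 and 1.06 (log2 change -0.18 (SE 0.13)), and at Klf2 the 30 kb contact stood at 0.42 (SE 0.16) while the 40 kb contact stood at -0.39 (SE 0.18).

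**Figure D5:**
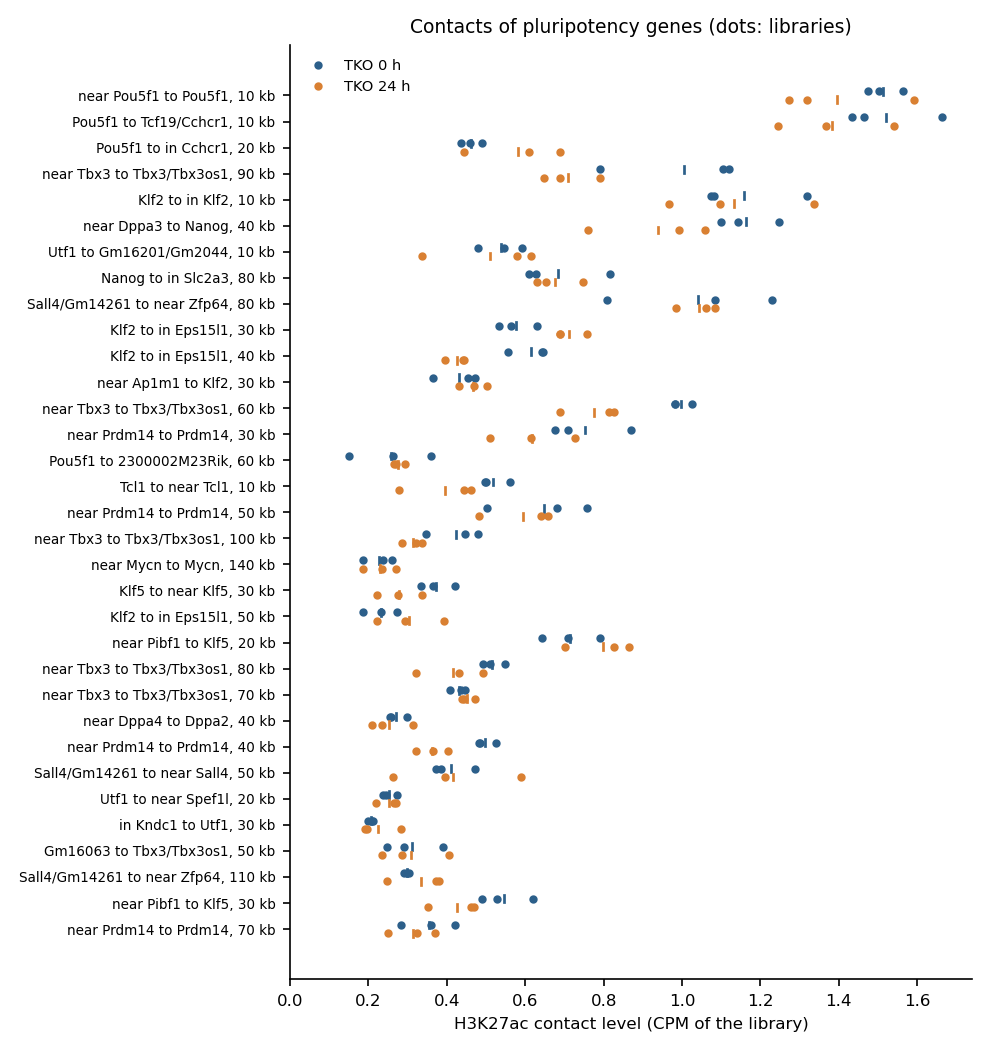
Each line is 1 of 33 new contacts out of the 35 tested at pluripotency genes, each point 1 TKO library (horizontal axis, H3K27ac contact level in CPM of the library) and each tick the mean of 3. The 0 h and 24 h points overlap in most, and Pou5f1 has the highest levels at both times.

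No other gene list had a called contact at 24 h either: 0 of 6 for LIF and JAK-STAT, 5 for Wnt, 2 for BMP, 4 for FGF and MAPK, 7 for DNA methylation and Polycomb, 8 for cell cycle and Myc, 2 for microRNA hosts, 3 for epithelial and 5 for neural genes, by edgeR, with 1 unadjusted p under 0.05, in the neural list, and 0 calls by DESeq2. With 2.2% lower and 0.601% higher over all contacts tested, 0 calls in lists this short say little. Both tests called 7 of the 386 new contacts that entered both, 6 of them lower at 24 h in TKO and higher in ES than on day 3 in KLF4. They included the contacts near Hspb8, where the 0 h libraries stood at 2.18, 2.31 and 2.19 in H3K27ac and the 24 h libraries at 1.303, 1.55 and 1.38 (log2 change -0.53, SE 0.11, adjusted p = 2.69e-04), near Tdrp (-0.45 (SE 0.12)), between Tbc1d25 and Ebp (-0.82 (SE 0.23)) and in Mir124a-1hg, whose KLF4 call was lost in 9 of 13 alternatives. The seventh, at Kirrel, was lower at 24 h (-0.61 (SE 0.15)) and lower in ES than on day 3. Most calls of new contacts were lower in TKO (169 against 46) and higher in the KLF4 test (26 against 7). The combination seen in 6 of the 7 is thus the common one in each test alone. The share over all contacts was not computed, and a link between the 2 changes was not tested.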

How the data were processed

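The authors deposited, per the file headers, 1 list of interactions between 10 kb bins for each of the 9 groups, with the raw count and a CPM value of every library and a p-value and an FDR for each interaction. Reads were placed on mm10 with Bowtie2 2.2.3, per the submitters' processing notes. The contact caller, its test and the list filters are not given in the sources used here. In the HiChIP lists the deposited CPM values are counts scaled to the contacts of the same chromosome and library, which holds for 20 of 20 chromosomes in every library. In the Hi-C lists the authors deposited a signal, named CPM in the file headers, that they made by scaling counts with constants whose origin is not stated, so Hi-C is given mainly as counts. The deposited domain files give start and end positions. The deposited p-values and FDR were used only to describe the lists.

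Contacts were matched between lists by identical bins, or within 1 bin at each anchor where stated. CPM of the library was computed from the deposited counts and the sum of the chromosome totals. Interactions in both lists of a comparison were tested on counts with edgeR 4.0.16 (R 4.3.3; quasi-likelihood test, filterByExpr, TMM factors on contact totals), with Benjamini-Hochberg adjustment over all interactions tested and a threshold of 0.05. The procedure was tested on simulated data with 200 changed contacts. Libraries of a group were summed where a chi-square test of their counts gave p of 0.05 or more while another pair of the group differed; TKO 0 h replicates 2 and 3 gave p = 0.0490 and stayed separate. Reads carry no molecular identifiers, so intervals cover counting error only. Alternatives included DESeq2 1.42.0, other scalings, left-out libraries and other list rules.

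The contacts named are the 10 with the largest called change in each direction at 24 h, those at genes of 13 gene lists (up to 5 per list and any called), the 5 strongest in each ES assay, the 5 longest, the 10 bins in most contacts, the 10 strongest in all KLF4 lists and up to 10 called in the KLF4 test. A few contacts under this rule are not reported here by name or drawn, though they remain in the counts. The contacts and gene lists were chosen with earlier results of these data known. Gene names come from the annotation deposited with the TKO lists and from RefSeq (GRCm38.p6), and the figures were drawn with matplotlib 3.10.9.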

Additional observations from a re-analysis of the deposited data

How the results depend on the processing

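The number of new contacts depends on the list rule: it was 13384, and 3324 when MEF contacts within 1 bin also counted as present, 633 with a deposited FDR under 0.1 in ES Hi-C, 8097 with 1 count cutoff per H3K27ac library for all chromosomes (chromosome X fell from 695 contacts to 72), 4276 at 50 kb or more and, in an alternative chosen after seeing the data, 3695 at a CPM of 6 or more. Their median distance was 40 kb without MEF contacts within 1 bin, 60 kb with that FDR and 20 kb with 1 count cutoff. Within 1 bin at each anchor, at 50 kb or more, and without MEF contacts within 1 bin, the share in the ES KLF4 list was 54.6%, 12.2% and 17.6%, in the day 3 KLF4 list 27.9%, 4.44% and 4.30%, in the TKO 0 h list 94.2%, 66.7% and 73.7%, and in the TKO 24 h list 92.0%, 58.3% and 66.5%.

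At 24 h the new contacts lower and higher were 169 and 46, against 356 and 21 without TMM (median log2 change -0.106), 358 and 19 with totals of each chromosome (median -0.105), 21 and 0 with DESeq2 and 20 and 2 of 2154 when only contacts of 50 kb or more were tested. DESeq2 gave an adjusted p to 1050 of the 8403: of the 215 called by edgeR it called 21, did not call 84 and gave no adjusted p for 110, and 301 had an unadjusted p under 0.05. Leaving out 1 library gave 98 to 120 lower and 21 to 32 higher, with medians of -0.00918 to -0.0021. Summing TKO 0 h replicates 2 and 3 (added after seeing the data) gave 157 and 44. Of the 26 named contacts called at 24 h, 19 to 21 kept their call when 1 library was left out and 24 without TMM.

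In the KLF4 test 33 were called, against 15 without TMM, 16 with totals of each chromosome, 2 with DESeq2, 5 at 50 kb or more and 8 to 34 with 1 library left out. Replicate numbers were not used to pair the libraries. Same-numbered deviations correlated at -0.0092 to 0.0071 in TKO and -0.079 to 0.042 in KLF4. The TKO libraries differed little beyond sampling noise (chi-square per degree of freedom 1.01 to 1.04), so this check cannot exclude pairing. With the replicate number as a block and all libraries separate, 174 were lower and 48 higher at 24 h, and 17 were called in the KLF4 test. With all libraries separate and no block, these were 171, 48 and 42. Depth limits the precision: median counts per listed contact were 22 to 35 in the TKO libraries and 14 to 40 in the ES and day 3 KLF4 libraries.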
